A study of Mus musculus with 11 samples.

Results

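Potassium channel genes were read across the cell classes of mouse perigonadal white adipose tissue (pgWAT), the fat depot beside the gonads. The members were all rows of the count matrix whose Ensembl identifier maps to a protein-coding gene symbol made of Kcn, further letters and a closing number. The rule gave 58 genes among 23507 gene rows, while 34 of the 92 annotated genes of this kind, Kcna3 and Kcnj10 among them, had no row and were not analysed here. The cells came from the stromal vascular fraction, the cells of fat other than adipocytes, of untreated Pdgfrb-GFP reporter mice on a C57BL6/J background that were 12 to 20 weeks old. In these mice a transgene with the Pdgfrb promoter marks mural and fibroblast-like cells with GFP. The 11 plates held 1177 cells of males (mice 1, 4 and 8) and 2084 cells of females (mice 2, 3, 5 and 6/7, the last being 2 animals under 1 label), sorted by GFP, by the endothelial surface protein CD31 and by DPP4, a surface protein of some adipose stem cells.

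Potassium channels let potassium leave the cell along its gradient and so set the membrane potential. Voltage-gated members open on depolarisation, inward rectifiers and tandem-pore channels carry resting currents, and other channels open on intracellular calcium or sodium. Auxiliary subunits change the gating or the surface level of the pore-forming subunits. In vessel walls these channels set smooth muscle tone, and in pericytes and smooth muscle the ATP-sensitive channel, built of a Kcnj8 pore and an Abcc9 sulfonylurea receptor, ties the membrane potential to metabolism. The rows held 25 voltage-gated members, 9 inward rectifiers, 8 tandem-pore members, 8 ion-activated members and 8 auxiliary subunits.

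Cells were clustered without the members and their partner genes, so that the classes did not depend on the channel genes described. Genes for potassium transport and calcium entry, described further below, were not taken out. By their marker genes, 2146 cells were adipose stem cell-like (ASC-like), 561 endothelial cell-like (EC-like), 100 mural-like and 137 macrophage-like (MAC-like). The mural-like cells were 59 pericyte-like and 41 vascular smooth muscle cell-like (VSMC-like) cells. Reads were summed per mouse and class where at least 10 cells were present, which gave ASC-like sums of 7 mice, EC-like sums of mice 1, 2, 5, 6/7 and 8, mural-like sums of mice 1 and 2, and MAC-like sums of mice 1 and 5. A sum held between 14765132 and 594421842 reads, and levels are given in CPM, reads set to the same total in each sum with TMM factors applied. The labelled classes carried their markers, with 2 reservations. The mural-like sum of mouse 2 was 13 pericyte-like cells of a CD31-positive plate, in which the EC markers summed to 5340 CPM against 2850 CPM for its own pericyte markers, 8230 CPM for EC markers in the EC-like cells of the same mouse and 501 CPM in the mural-like cells of mouse 1, and the sort had excluded CD45-positive cells although MAC-like cells were present. A gene was tested where more than 600 reads were summed in at least 2 sums, which 24 of the 58 members passed, and it was called where the adjusted p of edgeR's quasi-likelihood test was below 0.05 and the fold exceeded 2.6.

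The read limit favoured ASC-like cells, which had the most and deepest sums. Of the 24 members that passed, 12 had no sum over the limit outside ASC-like cells, and 10 of these were highest in ASC-like cells. Counts and medians over the members that passed therefore describe them and not all 58. Lower calls and negative medians against ASC-like cells cannot be told apart from this selection. Among the 24, the class with the highest mean was ASC-like for 10, mural-like for 7, EC-like for 4 and MAC-like for 3. Among the 34 members below the read limit, mural-like cells had the highest mean for 14 and MAC-like cells for 9. Most of the 14 mural-like means rested on reads in 1 of the 2 sums, such as Kcnmb1 (1635 reads), Kcnk1 (20) and Kcnj13 (8). Some MAC-like means rested on few reads, such as Kcna6 (11). Other annotated genes overlap 49.1% of the exon bases of Kcnj13 and 39.6% of those of Kcna6, and reads there cannot be told apart. The count of highest classes was not made over all genes. Scaled to exon length, all members together summed to 294 CPM per kb or more in both mural-like sums, of which Kcnj8 alone was 145 in mouse 1 and 235 in mouse 2. The same sum was 16.8 to 37.3 CPM per kb in ASC-like, 16.2 to 106 in EC-like, and 25.5 and 47.2 in MAC-like sums. Without Kcnj8 the mural-like sums were 155 and 59.4 CPM per kb, the latter within the EC-like range of 16.2 to 106. After each cell was thinned to 150000 reads, the median number of members with a read was 4 in mural-like, 2 in ASC-like, 2 in MAC-like and 1 in EC-like cells. This left out 2 ASC-like and 3 EC-like cells with fewer reads, and 94 mural-like cells of the 2 mice entered.

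**Figure D1:**
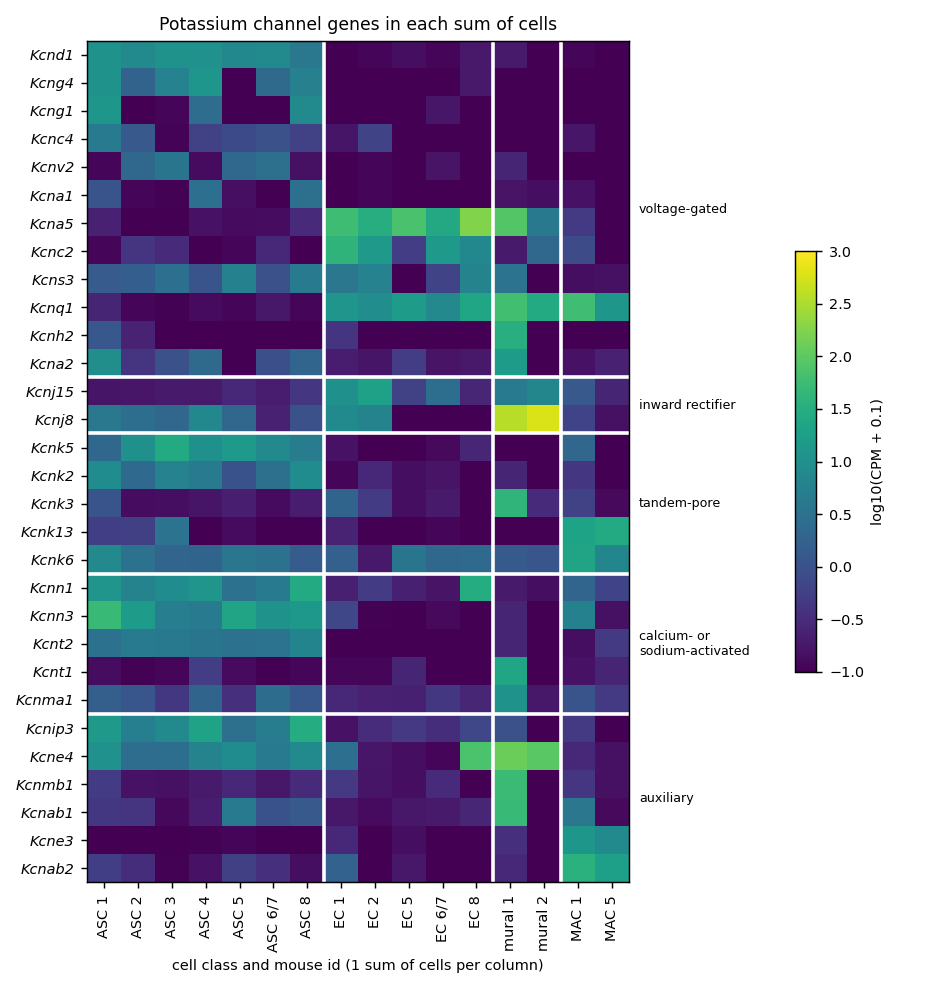
Heat map of log10(CPM + 0.1) for 30 members with more than 600 reads in at least 1 sum (rows) in the 16 sums of class and mouse (columns). Kcnj8 reaches 369 and 598 CPM in the mural-like columns, and Kcna5 lies between 25.5 and 172 CPM in the EC-like ones.

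The inward rectifiers were led by Kcnj8 (ENSMUSG00000030247, mm10 chromosome 6, 142564837 to 142571614, minus strand), the pore of the vascular ATP-sensitive channel. Kcnj8 stood at 369 CPM in the mural-like cells of mouse 1 and at 598 CPM in those of mouse 2. In ASC-like cells it ranged from 0.130 to 7.33 CPM, and in EC-like cells it was 8.08 and 5.98 CPM in mice 1 and 2 and had no read in mice 5, 6/7 and 8. No mural-like value overlapped that of another class. The level rose in mural-like against EC-like cells (log2 fold change 6.98 ± 1.27 SE, adjusted p = 0.022), and the difference from ASC-like cells missed the threshold (5.53 ± 1.71 SE, adjusted p = 0.087). The first call rested on both mice, because without the mural-like sum of mouse 2 the adjusted p was 0.16. In the thinned cells, 62.8% of mural-like cells had a Kcnj8 read (95% exact binomial interval 52.2 to 72.5%), against 8.78% of EC-like, 5.32% of ASC-like and 0.730% of MAC-like cells. Shares of thinned cells per class, here and below, pool the cells of all mice, so their intervals do not cover differences between mice. This mural-like share also mixes pericyte-like and VSMC-like cells, which differed in Kcnj8 as given below. Pericyte markers in the EC-like sums were 52.4 and 102 CPM in mice 1 and 2, where Kcnj8 had reads, and 6.32, 46.2 and 12.2 CPM in mice 5, 6/7 and 8, where it had none; their part in the EC-like level was not tested.

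Abcc9, the receptor subunit that pairs with Kcnj8, lies 16.2 kb from it on chromosome 6. It was at 784 and 368 CPM in the mural-like sums of mice 1 and 2, 0.590 to 33.3 CPM in ASC-like and 0.0857 to 20.2 CPM in EC-like sums. Abcc9 rose in mural-like cells against both ASC-like cells (log2 fold change 4.15 ± 0.889 SE, adjusted p = 0.022) and EC-like cells (6.07 ± 0.827 SE, adjusted p = 0.0057). The neighbours thus shared their highest class, whereas the 5 EC-like sums differed among themselves for both genes. The RefSeq promoters (250 bases before to 50 after the start, GRCm38.p6) are shown because these linked genes were both highest in mural-like cells, and that of Kcna5 because it had the highest EC-like level of the members. Kcnj8 is chr6:142571565-142571864, Abcc9 is chr6:142702225-142702524 and Kcna5 is chr6:126535506-126535805, all on the minus strand and written 5′ to 3′, with GGAA on either strand (GGAA or TTCC, the core bound by ETS factors) in capitals.
Kcnj8: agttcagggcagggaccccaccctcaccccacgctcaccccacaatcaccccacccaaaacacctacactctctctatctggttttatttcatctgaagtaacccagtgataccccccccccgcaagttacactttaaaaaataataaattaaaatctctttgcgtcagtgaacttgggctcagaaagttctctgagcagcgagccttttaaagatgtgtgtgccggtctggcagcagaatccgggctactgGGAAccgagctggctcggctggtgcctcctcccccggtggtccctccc
Abcc9: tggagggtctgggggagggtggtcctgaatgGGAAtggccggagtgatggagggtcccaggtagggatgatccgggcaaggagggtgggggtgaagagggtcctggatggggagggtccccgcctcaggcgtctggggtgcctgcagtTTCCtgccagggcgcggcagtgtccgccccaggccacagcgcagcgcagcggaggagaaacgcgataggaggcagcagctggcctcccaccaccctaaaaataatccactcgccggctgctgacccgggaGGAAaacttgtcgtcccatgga
Kcna5: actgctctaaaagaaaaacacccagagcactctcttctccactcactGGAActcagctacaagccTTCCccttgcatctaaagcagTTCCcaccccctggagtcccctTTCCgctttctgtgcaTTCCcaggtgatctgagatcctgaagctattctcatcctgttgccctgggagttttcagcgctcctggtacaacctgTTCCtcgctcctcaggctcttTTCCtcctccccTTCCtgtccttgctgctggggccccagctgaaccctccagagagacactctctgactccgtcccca
The window of Kcnj8 held 1 GGAA, that of Abcc9 held 3 and that of Kcna5 held 8, where the median of 32851 promoters was 3 and 3.72% had 8 or more. At least 1 GGAA stood in 96.0% of all promoters and in 94.8% of the 58 promoters of the 38 members that matched. The E-box CANNTG stood in 72.3% of all and 82.8% of member promoters, TATAAA in 13.6% and 6.9%, and the CArG box in 1.63% and 0%.

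The other inward rectifiers were low. Kcnj2, the main endothelial strong rectifier in many vessels, was highest in EC-like cells but uneven, at 0.524, 2.73, 0, 2.23 and 0.0857 CPM in mice 1, 2, 5, 6/7 and 8, and it did not pass the read limit. Kcnj15, a weak inward rectifier, was at 10.2, 19.4, 0.522, 2.73 and 0.171 CPM in the same EC-like sums and missed the threshold against ASC-like cells (log2 fold change 4.15, adjusted p = 0.081). Kcnj11, the pore of the pancreatic and cardiac ATP-sensitive channel, stood at 3.69 CPM in the mural-like cells of mouse 1 and had no read in those of mouse 2.

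The comparison of EC-like with ASC-like cells asked how channel genes differ between vessel lining and stroma. In mice 1 and 2 nearly all cells of these classes came from different plates and sorts, and in mouse 6/7 most did. Class, plate and sort cannot be told apart there. Of the 24 members tested, 13 were called (54.2%), against 21.6% of the 12811 genes tested. Of these, 3 were higher in EC-like cells and 10 were lower, and the median log2 fold change of the members was −3.4, against −0.18 over all genes tested. The members highest in ASC-like cells passed the read limit through ASC-like sums alone. The excess of lower calls and the negative median cannot be told apart from that selection. The member median stayed at −3.4 with Kcnt2, which had no EC-like read, set at its bound. All 3 members that rose in EC-like cells were voltage-gated. Among those that fell, 4 were voltage-gated, 3 ion-activated, 2 tandem-pore and 1 auxiliary. The 561 EC-like cells also held adipocyte genes at 1220 to 3300 CPM per sum and erythroid genes at up to 9080 CPM, and 171 of the 178 EC-like cells of mouse 1 fell in another cluster than those of the other mice.

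Kcna5, a delayed-rectifier channel of vascular cells, was the leading EC-like member. It stood at 56.2, 31.3, 71.5, 25.5 and 172 CPM in the EC-like cells of mice 1, 2, 5, 6/7 and 8 (mean 71.3 ± 59.3 SD, n = 5) and at 0 to 0.215 CPM in the ASC-like cells of 7 mice. Every EC-like sum lay above every ASC-like sum, and the log2 fold change was 10.67 ± 1.17 (SE, adjusted p = 0.00018). In the mice whose EC-like and ASC-like cells all came from 1 plate, the order was the same, with 71.5 against 0.0298 CPM in mouse 5 and 172 against 0.215 CPM in mouse 8. After thinning, 33.9% of EC-like cells had a Kcna5 read (95% interval 29.9 to 38.0%), against 0.513% of ASC-like and 2.92% of MAC-like cells. The 5 cells with most reads held between 21.3% and 83.2% of the Kcna5 reads of an EC-like sum.

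Kcnq1, a slow delayed rectifier that pairs with Kcne subunits, was low in ASC-like cells and raised in the other 3 classes. Its level was 11.9, 9.0, 15.4, 7.49 and 23.6 CPM in the EC-like sums of mice 1, 2, 5, 6/7 and 8, and 0.00515 to 0.159 CPM in the ASC-like sums. The difference was called (log2 fold change 8.34 ± 0.885 SE, adjusted p = 0.00015). Few cells carried it, since the share of thinned EC-like cells with a Kcnq1 read had a 95% interval of 7.67 to 12.8%, and the 5 cells with most reads held 86.3 to 100% of the Kcnq1 reads of a sum. The exons of Kcnq1 share 3.0% of their bases with the antisense RNA Kcnq1ot1, and since counting by strand was not stated, reads there cannot be told apart.

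Kcnc2, a fast delayed rectifier best known from neurons, was also higher in EC-like cells, at 39.4, 14.6, 0.442, 13.9 and 7.28 CPM in mice 1, 2, 5, 6/7 and 8 against at most 0.313 CPM in ASC-like cells (log2 fold change 7.95 ± 1.52 SE, adjusted p = 0.004). The low value of mouse 5 came from 11 reads in 2 cells.

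**Figure D2:**
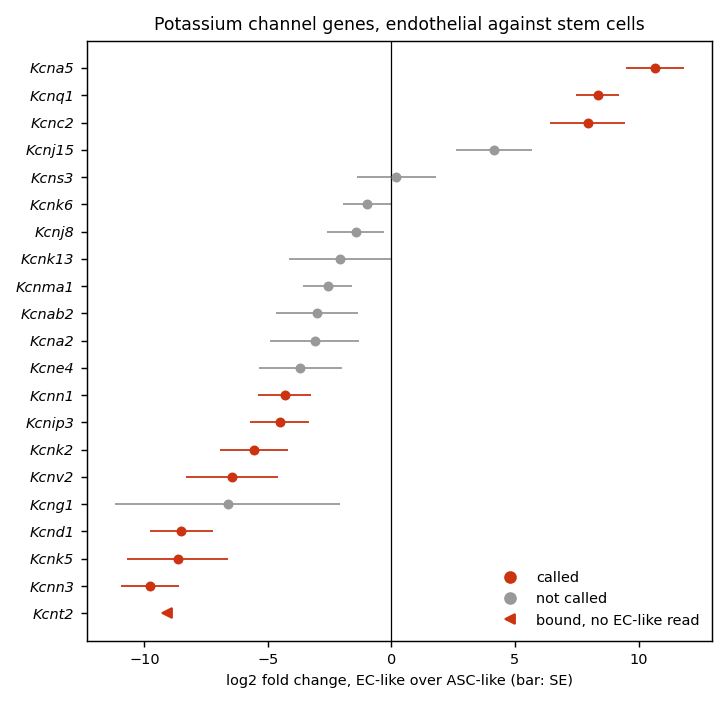
Log2 fold change of EC-like against ASC-like cells (x axis) with its SE (bars) for 21 of the members that passed the read limit (y axis), with called members in red. Kcna5 at 10.67, Kcnq1 at 8.34 and Kcnc2 at 7.95 lie on the EC-like side, the other called members shown lie between −4.33 and −9.78, and Kcnt2, with no EC-like read, is drawn as an arrow at its bound of −9.09.

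The members higher in ASC-like cells comprised voltage-gated members, some of them modifier subunits, calcium- and sodium-activated channels, tandem-pore channels and an auxiliary subunit. Kcnn3, a small-conductance calcium-activated (SK) channel, stood at 49.7, 15.8, 4.95, 4.21, 21.9, 11 and 13.7 CPM in the ASC-like cells of mice 1, 2, 3, 4, 5, 6/7 and 8, and at no more than 0.607 CPM in any EC-like sum. Its log2 fold change in EC-like cells was −9.78 ± 1.19 (SE, adjusted p = 0.00032), and 15.2% of ASC-like cells had a thinned read against 2.87% of EC-like cells. Kcnt2, a sodium-activated channel, stood at 3.05 to 6.35 CPM in ASC-like sums, highest in mouse 8, and had no read in 561 EC-like cells. ASC-like cells were therefore at least 546-fold higher in Kcnt2, counted against a floor of 3 reads over all EC-like sums (adjusted p = 0.0086). Kcnn1, another SK channel, was also lower in EC-like cells (log2 fold change −4.33 ± 1.09 SE, adjusted p = 0.016), but the EC-like cells of mouse 8 stood at 30.2 CPM, above all 7 ASC-like sums, and 99.7% of those 353 reads came from 1 cell. Without the mouse block the Kcnn1 difference was −0.72 (adjusted p = 0.72).

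Kcnd1, a pore of rapidly inactivating A-type currents, was at 3.88 to 11.4 CPM in ASC-like cells (mean 8.58 ± 2.64 SD, n = 7) and at most 0.0857 CPM in EC-like cells (log2 fold change −8.51 ± 1.27 SE, adjusted p = 0.001). Its calcium-binding partner Kcnip3 was at 2.92 to 29.7 CPM in ASC-like and 0.0552 to 0.600 CPM in EC-like cells (log2 fold change −4.52 ± 1.2 SE, adjusted p = 0.021). Neither gene overlapped between the groups.

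Kcng4 and Kcnv2 encode subunits that form no channel alone and modify other voltage-gated pores. Kcng4 had 7898 reads in ASC-like cells and 1 read in EC-like cells, a ratio of 1890 with a 95% counting interval of 339 to 74700 (adjusted p = 0.0074), although the ASC-like cells of mouse 5 had no Kcng4 read either. Kcnv2 fell in EC-like cells as well (log2 fold change −6.46 ± 1.86 SE, adjusted p = 0.034) and differed by sex in ASC-like cells.

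Of the tandem-pore channels, Kcnk5, an alkaline-activated channel, ranged from 2.16 to 27.9 CPM in ASC-like sums and reached at most 0.171 CPM in EC-like sums (log2 fold change −8.65 ± 2.04 SE, adjusted p = 0.014). Kcnk2, which responds to stretch and lipids, was at 8.58, 2.22, 5.88, 4.14, 0.908, 2.94 and 8.57 CPM in the ASC-like cells of mice 1, 2, 3, 4, 5, 6/7 and 8, and at most 0.186 CPM in EC-like cells (log2 fold change −5.56 ± 1.37 SE, adjusted p = 0.015). Antisense transcription overlaps 12.2% of the Kcnk2 exon bases and cannot be told apart, and annotated genes overlap 6.0% of those of Kcnma1, 5.8% of Kcnk3 and 5.3% of Kcnj15. Kcnk6 (log2 fold change −0.99, adjusted p = 0.52) and Kcnk13 (−2.09, adjusted p = 0.53) did not pass the test between EC-like and ASC-like cells.

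The comparison of mural-like with ASC-like cells called 5 of 24 members (20.8%), against 7.88% of all genes tested, 2 of them higher and 3 lower in mural-like cells. With 2 mural-like sums its precision was low, and 11 members had an unadjusted p below 0.05. The median log2 fold change of the members was −1.31, against −0.22 over all genes tested. Kcnq1 rose to 61.7 and 27.8 CPM in the mural-like cells of mice 1 and 2 (log2 fold change 9.92 ± 1.06 SE, adjusted p = 9e-04), and Kcna5 to 83.8 and 3.99 CPM (9.11 ± 1.34 SE, adjusted p = 0.0047). Both calls held without the sum of mouse 2, at 9.26 (adjusted p = 0.013) for Kcnq1 and 9.66 (adjusted p = 0.043) for Kcna5, while the calls of the 3 lower members were lost. The mural-like sum of mouse 2, with EC markers at 5340 CPM, had the lower Kcna5 value. By the library total, the VSMC-like cells of mouse 1 had EC markers at 15.9 CPM and Kcna5 at 77.2 CPM. The pericyte-like cells of mouse 1 had EC markers at 910 CPM and a lower Kcna5 level, given below. All marker sums are by the library total. The part of endothelial reads in the mural-like Kcna5 level was not tested.

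Kcnn3 fell to 0.161 and 0 CPM in the mural-like sums (log2 fold change −11.28 ± 2 SE, adjusted p = 0.01), and Kcnn1 to 0.0964 and 0.0399 CPM (−6.72 ± 1.68 SE, adjusted p = 0.04). Kcnd1 had 3 mural-like reads, which gives a ratio of 164 in favour of ASC-like cells with a 95% counting interval of 56.2 to 797 (adjusted p = 0.039). Kcnk5 had no mural-like read, so ASC-like cells were at least 210-fold higher against a floor of 3 reads, but it was not called. Kcne4, an auxiliary subunit that inhibits several voltage-gated channels, was at 128 and 96.2 CPM in mural-like and 2.6 to 10.4 CPM in ASC-like cells without passing the test (log2 fold change 4.49, adjusted p = 0.23).

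Between mural-like and EC-like cells, 2 of 24 members were called (8.33%), against 2.2% of all genes tested, and both were higher in mural-like cells. Kcnj8, described above, was among them. The median log2 fold change of the members was −0.64, against −0.05 over all genes tested, and 0.35 over 20 members once members without a read in 1 of the classes were set at their bound or, having none, left out. Kcnma1, the large-conductance calcium-activated (BK) channel, was at 11 and 0.0798 CPM in mural-like cells and was not called with both mice (4.04, adjusted p = 0.3). Kcne4 stood at 2.76, 0.0772, 0.0402, 0.0122 and 72.5 CPM in the EC-like cells of mice 1, 2, 5, 6/7 and 8 and was not called (8.18, adjusted p = 0.1). The 72.5 CPM were 846 reads of 1 of 29 cells.

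**Figure D3:**
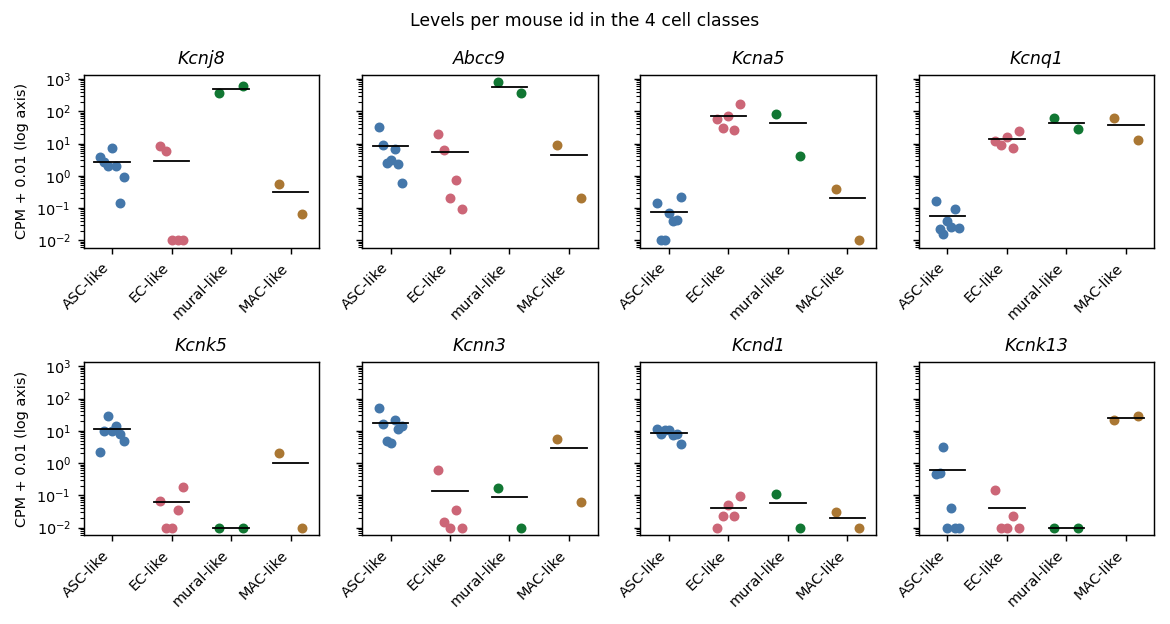
Level of 8 genes in CPM + 0.01 on a log axis (y axis) in the sums of each class (x axis), with a point for each mouse and a line at the class mean. Kcnj8 and Abcc9 are highest in mural-like cells, Kcna5 is high in EC-like and mural-like cells, Kcnq1 is low only in ASC-like cells, Kcnk5, Kcnn3 and Kcnd1 are highest in ASC-like cells, and Kcnk13 is at 21.1 and 27.9 CPM in MAC-like cells.

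The mural-like cells of mouse 1 held both of their parts, 43 pericyte-like and 38 VSMC-like cells, whose levels are given in CPM by the library total alone. Of the 41 VSMC-like cells, 3 came from other mice, too few for a sum, so the values have no replicate and no test. Kcnj8 was 421 in pericyte-like and 2.14 in VSMC-like cells, and 914 in the pericyte-like cells of mouse 2. Abcc9 was 865 and 41.4 in the same parts of mouse 1 and 562 in mouse 2, and Kcnq1 was 70.3 and 0.481, and 42.5 in mouse 2. The ATP-sensitive channel pair and Kcnq1 were thus higher in both pericyte-like groups than in VSMC-like cells.

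The contractile part of the wall carried another set. Kcnmb1, the BK channel subunit that raises its calcium sensitivity in smooth muscle, was 0.479 in pericyte-like and 70.9 in VSMC-like cells of mouse 1, and the BK pore Kcnma1 was 0.773 and 14. Kcnab1, a cytoplasmic subunit of Kcna channels, was 0.552 and 65.4, and the resting tandem-pore channel Kcnk3 was 4.31 and 50.5. Kcna5 was 31.0 and 77.2, Kcne4 was 42.5 and 124, and Kcnq5 was 1.22 and 5.37, but mouse 2's pericyte-like cells were at 147 for Kcne4 and 17.6 for Kcnq5, above the VSMC-like values. The Kcne4 and Kcnq5 difference between the parts therefore did not hold in the other mouse.

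Other members that separated the parts were chosen after their values were seen. The sodium-activated Kcnt1 was 0.479 in pericyte-like and 30.5 in VSMC-like cells of mouse 1. Kcnh2, the rapid delayed rectifier of heart, was 0.184 and 45.7, and the strong inward rectifier Kcnj12 was 0.0737 and 12.8. The second ATP-sensitive pair, Kcnj11 and its receptor Abcc8, which lie 3.76 kb apart on chromosome 7, was higher in VSMC-like cells as well. Kcnj11 was 0.184 and 4.81, and Abcc8 was 0.110 and 27.8. The VSMC-like cells held Abcc9 as well, at the 41.4 given above.

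**Figure D4:**
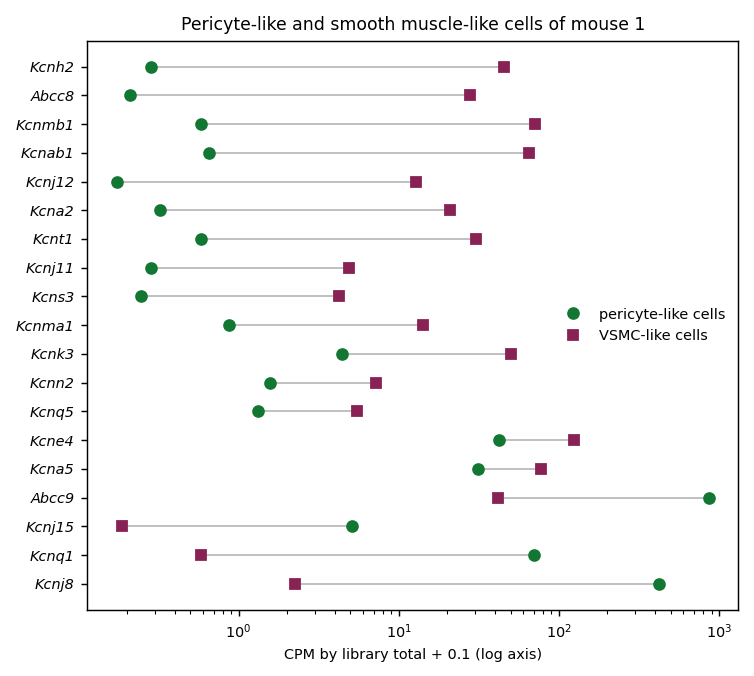
CPM by the library total, plus 0.1, on a log axis (x axis) in the 43 pericyte-like cells (circles) and the 38 VSMC-like cells (squares) of mouse 1 for 19 genes that reached 4 in either (y axis). For Kcnj8, Abcc9 and Kcnq1 the circle lies to the right of the square, and for Kcnmb1, Kcnab1, Kcnk3 and Kcnh2 it lies to the left.

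MAC-like cells differed from ASC-like cells in 3 of 24 members (12.5%), against 14.9% of all genes tested, a share of members no higher than that of genes. The median log2 fold change of the members was −4.48, against −0.18 over all genes tested. Kcnq1 rose to 60.2 and 13.0 CPM in mice 1 and 5 (log2 fold change 9.26 ± 1.02 SE, adjusted p = 0.00052), with 10.2% of thinned MAC-like cells carrying a read. Kcnn3 fell to 5.70 and 0.0538 CPM (−6.38 ± 1.57 SE, adjusted p = 0.024), the former within the ASC-like range of 4.21 to 49.7 CPM, and this call was lost in 6 of 19 alternatives. Kcnd1 had 1 MAC-like read (ratio 781 in favour of ASC-like cells, 95% counting interval 140 to 30800, adjusted p = 0.013).

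Kcnk13, a halothane-inhibited tandem-pore channel known from microglia, stood at 21.1 and 27.9 CPM in the MAC-like cells of mice 1 and 5, above every other sum, of which the next was 3.25 CPM in ASC-like cells. A thinned Kcnk13 read was found in 30.7% of MAC-like cells (95% interval 23.1 to 39.1%), 0.700% of ASC-like and 0.179% of EC-like cells, and in 0 of 94 mural-like cells, which allows a share with a read of up to 3.19% (3 of 94 cells). The difference from ASC-like cells missed the threshold at 2 MAC-like sums (log2 fold change 7.92 ± 2.74 SE, adjusted p = 0.1). The lysosomal tandem-pore channel Kcnk6 was at 21.5 and 6.84 CPM in MAC-like cells and at 1.36 to 7.92 CPM in ASC-like cells, which overlapped (1.65, adjusted p = 0.43). Kcnab2, a cytoplasmic subunit of Kcna channels chosen after its values were seen, was at 35.7 and 18.0 CPM in MAC-like cells and at most 1.72 CPM in any other sum (3.97, adjusted p = 0.32). Kcnn4, the intermediate-conductance calcium-activated channel of blood cells, was at 8.77 and 12.0 CPM. Kcne3, a subunit that holds Kcnq1 open, was at 13.1 and 7.97 CPM, but its reads came from 7 cells of mouse 1, with 72.5% in 1 cell, and 2 cells of mouse 5. Neither Kcnn4 nor Kcne3 passed the read limit.

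Between genes, levels can be compared per exon length. On the scale of mean CPM per kb, Kcnj8 was at 190 and Kcne4 at 42.2 in mural-like cells, Kcna5 at 24.9 in EC-like cells, and Kcnq1 at 10.9 in mural-like, 8.94 in MAC-like and 3.29 in EC-like cells. In MAC-like cells Kcnk13 was at 7.87 CPM per kb and Kcne3 at 5.92. No member stood out as far in ASC-like cells, where Kcnip3 was at 3.43, Kcnk5 at 3.24, Kcnn1 at 2.31, Kcne4 at 2.29, Kcnn3 at 1.66 and Kcnd1 at 1.62 CPM per kb.

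The ASC-like cells of mouse 2 were sorted by DPP4, a protein of early adipose progenitors, with 379 cells of the DPP4-positive plate and 368 of the DPP4-negative plate. This was 1 mouse and 1 plate per sort, so sort and plate cannot be told apart and there is no test. Kcnj8 had no read in the DPP4-positive cells and 7.11 CPM by library total in the DPP4-negative cells, and Abcc9 was 2.36 and 20.3. Kcnk5 ran the other way, at 20.6 and 4.45, with reads in 130 and 31 cells. Kcnk13 did so as well, at 1.17 and 0.00346, but from 358 reads in 6 cells against 1 read. Kcnn3 (15.1 and 25.3), Kcnn1 (3.59 and 11.8), Kcnk2 (1.5 and 4.20), Kcnma1 (0.331 and 2.42) and Kcne4 (0.864 and 5.87) were higher in DPP4-negative cells. Kcnd1 was 11.7 and 8.98.

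The comparison of the sexes within ASC-like cells, 3 male against 4 female mouse ids, called 3 of 17 members tested (17.6%), against 2.11% of 11760 genes. Kcng1 passed the read limit through male sums alone and Kcnv2 through female sums alone, so the share of members called cannot be told apart from this selection. The cells of males and females lay in different clusters, and no plate held both sexes, so sex and plate cannot be told apart. The median log2 fold change of the members was 0.79, against 0.04 over all genes tested. Scaled by library totals alone, the median of all genes moved to −0.6, and the share of called genes that were higher in males went from 73.8% to 32.8%. Kcng1, a modifier subunit of delayed rectifiers, was at 13.0, 2.55 and 7.74 CPM in males 1, 4 and 8. In females 2, 3, 5 and 6/7 it was at 0.00133, 0.0155, 0 and 0 CPM, in all 4 reads in 1481 cells. The groups did not overlap, and the log2 fold change of males against females was 10.92 ± 1.12 (SE, adjusted p = 0.0017). The reads were confined to 16, 36 and 10 cells of males 1, 4 and 8, and by library totals alone the fold change was 9.94.

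Kcnv2 ran opposite to Kcng1, at 0.0114, 0.0295 and 0.0537 CPM in males and at 2.17, 3.54, 2.16 and 2.92 CPM in females 2, 3, 5 and 6/7. The groups did not overlap (log2 fold change −6.46 ± 0.751 SE, adjusted p = 0.0027), and the value was −7.08 by library totals alone. Kcnv2 is a modifier subunit known from photoreceptors, and a thinned read was found in 3.49 to 8.65% of the ASC-like cells of each female and in no male cell. Kcnip3 was higher in males, at 14.4, 19.9 and 29.7 CPM against 5.19, 8.16, 2.92 and 4.94 CPM in females (2.00 ± 0.376 SE, adjusted p = 0.026), but by library totals alone it was 1.27 (adjusted p = 0.14). Kcnn1, at 17.3 ± 9.12 CPM in males (SD, n = 3) and 5.55 ± 2.42 CPM in females (SD, n = 4), missed the threshold (1.64, adjusted p = 0.088).

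**Figure D5:**
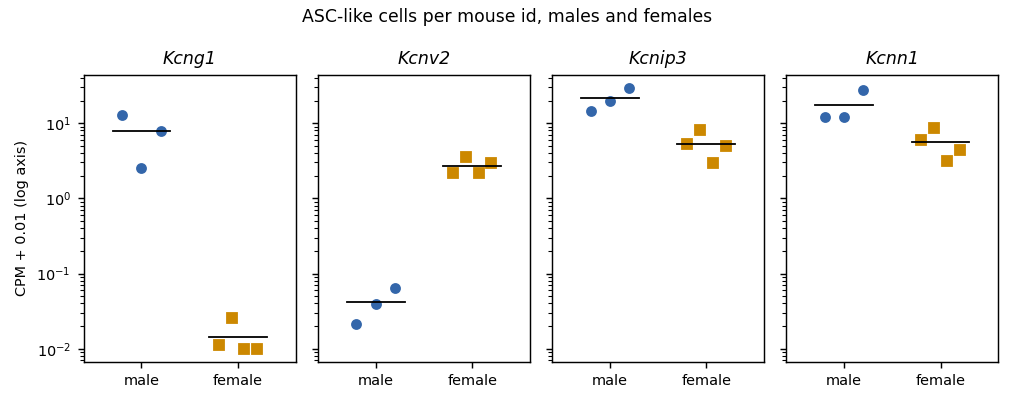
Level in CPM + 0.01 on a log axis (y axis) of Kcng1, Kcnv2, Kcnip3 and Kcnn1 in the ASC-like cells of each male and female mouse (points, x axis; line, mean). Kcng1 lies at 2.55 to 13.0 CPM in males and at most 0.0155 CPM in females, and Kcnv2 lies at 2.16 to 3.54 CPM in females and at most 0.0537 CPM in males.

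Within EC-like cells, 2 male against 3 female mouse ids, edgeR called none of the 4 members tested and 0.0493% of 8109 genes, and none of the 4 had an unadjusted p below 0.05. DESeq2 and the likelihood ratio test of edgeR also called 0 members. The 4 genes called among all genes were 1 higher and 3 lower in males. DESeq2's size factors in edgeR left 1 call and library totals alone 3, with 0 higher in both, whereas 83.6% of the calls of the likelihood ratio test and 80.8% of those of DESeq2 were higher in males. Kcna5 had a log2 fold change of males against females of 1.39 (adjusted p = 0.66), Kcnc2 of 1.3 (0.81), Kcnq1 of 0.72 (0.82) and Kcnj15 of −0.47 (0.96). With 5 sums this does not show that the sexes are alike.

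Genes around the channels were counted by fixed lists. Of 17 partners of potassium channels and related channels, 7 were tested, and none was called between EC-like and ASC-like cells (21.6% of all genes), 2 were higher in mural-like than ASC-like cells (7.88% of all genes), 1 was higher in MAC-like than ASC-like cells (14.9%) and 1 was higher in mural-like than EC-like cells (2.2%). The mural-like calls were Abcc9 and, against ASC-like cells, Amigo2 (log2 fold change 6.82 ± 1.73 SE, adjusted p = 0.043), a cell adhesion protein. The MAC-like call was the kinase Wnk1 (1.52, adjusted p = 0.033). The sex comparisons called none of this list.

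Of 16 genes for potassium transport, 14 were tested. EC-like cells were higher in 1 and lower in 4 than ASC-like cells (21.6% of all genes called), mural-like cells higher in 1 (7.88%) and MAC-like cells higher in 2 and lower in 3 (14.9%). The potassium chloride cotransporter Slc12a7 was the shared gain. It was at 16.0 to 81.6 CPM in EC-like, 38.7 and 43.8 in mural-like, 56.6 and 59.6 in MAC-like and 0.138 to 4.79 in ASC-like sums, with log2 fold changes against ASC-like cells of 5.44 (adjusted p = 0.00084), 5.31 (adjusted p = 0.011) and 5.92 (adjusted p = 0.0025) in that order. The 3 comparisons share the ASC-like sums. The sodium pump regulators Fxyd1 and Fxyd6 fell in EC-like cells, by 4.79 and 6.32 on the log2 scale (adjusted p = 8.2e-05 and 0.0017), and Fxyd1 was at 51.5 to 170 CPM in ASC-like against 0.942 to 8.17 CPM in EC-like sums. Mural-like cells were higher than EC-like cells in 2 genes (2.2% of all genes called), Fxyd1 (3.34, adjusted p = 0.012) and the pump subunit Atp1b2 (6.36, adjusted p = 0.041), and no member of this list was called between the sexes.

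Of 33 genes for calcium entry and release, 20 were tested, and EC-like cells were higher in 3 and lower in 5 than ASC-like cells (21.6% of all genes called), among the latter the T-type channel pore Cacna1g (log2 fold change −8.21 ± 2.01 SE, adjusted p = 0.014) and Cacna1a (−5.27, adjusted p = 0.017). MAC-like cells were lower in 2, Cacnb3 and Cacna1g (14.9% of all genes called), and for mural-like cells none was called against either class (7.88% and 2.2%). Males were higher in 2 and lower in 1 within ASC-like cells (2.11% of all genes called). The higher genes, named after their values were seen, were the calcium store sensor Stim1 (2.02 ± 0.378 SE, adjusted p = 0.025) and the channel pore Orai2 (1.69 ± 0.314 SE, adjusted p = 0.024).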

How the data were processed

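Full-length Smart-seq2 libraries without molecular identifiers were read as single reads. The authors aligned them with STAR to mm10 with ERCC spike-ins, quantified genes with Salmon, imported them with tximport, and removed poor cells and rarely detected genes. Tool versions are not given in the sources used here. The deposited counts are whole reads per gene and cell, and spike-in rows (1.98% of reads) were left out. A cell had a median of 616939 reads in genes. PCR reads are not independent molecules, so intervals and floors cover counting error only.

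A deposited cell annotation was not used here. Cells were clustered with Seurat 5.3.0 (3000 variable genes without members and partners, 14 components, resolution 1.1, 18 clusters), and clusters were named from marker genes, hence "like". Clusters of 276 cells, led by adipocyte genes or Sox10 or with a high mitochondrial share, stayed unnamed. No doublet caller was run.

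Counts were summed per mouse id and class and tested in edgeR 4.0.16 (R 4.3.3) with TMM factors and the quasi-likelihood test, two-sided, Benjamini-Hochberg adjusted over all genes tested. The study's own filter (over 600 reads in 2 sums) and fold limit of 2.6 were kept. Class comparisons came from 1 fit of 16 sums with class and mouse (6 residual degrees of freedom). The classes come from the same animals, which pairs them by mouse but often not by plate. Beside the EC-like cells described above, the mural-like cells of mouse 2 and nearly all MAC-like cells of mouse 1 came from other plates than the ASC-like cells. Most mural-like and EC-like cells of mouse 1 also lay on different plates. Class, plate and sort cannot be told apart in these mice. Deviations of ASC-like and EC-like sums of a mouse correlated at 0.07 to 0.21. Sex fits had no block. An SE is the log2 fold change divided by the square root of F. Alternatives were DESeq2 1.42.0, edgeR's likelihood ratio test, other scaling, filters and class rules, the fit without the block, and leaving out each mouse. The tests were checked on simulated 8-fold changes in 200 genes, all with a mean above 600 reads per sum and no other difference between sums. Calls recovered 62.5% of these in EC-like, 18.5% in mural-like and 26% in MAC-like cells, each against ASC-like cells. They recovered 27.5% in mural-like against EC-like cells, and 92.5% and 39% between the sexes of ASC-like and EC-like cells. Between the sexes of ASC-like cells, 16 unchanged genes were also called. Recovery for members with fewer reads per sum is not known. Named genes were all called members, a fixed list of channels, and up to 4 called genes of each related list, and any other is named as chosen after its values were seen. The members and lists were chosen with earlier results of these data known. A few genes counted among the calls are not reported here by name.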

Additional observations from a re-analysis of the deposited data

Results flagged for a closer look

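Within 22 groups of 5 or 7 sums, the highest or lowest mouse stood apart by Dixon's criterion in 6. The criterion assumes normal values and was applied to untransformed CPM, so the number expected by chance is not known. In EC-like cells, Kcne4 was at 72.5 CPM in mouse 8, with the gap to the next mouse at 0.962 of the range, and Kcnn1 was at 30.2 CPM in the same mouse (0.988 of the range). Both values came nearly whole from 1 cell each of 29. In ASC-like cells, Kcnn1 was at 27.8 CPM in mouse 8 (0.635 of the range) and Kcnt2 at 6.35 CPM in mouse 8 (0.603). Kcnk6 was at 7.92 CPM (0.646) and Kcnn3 at 49.7 CPM (0.611) in the ASC-like cells of mouse 1. Mice 1 and 8 are both male, and their ASC-like sums had the lowest TMM factors of the 7. These were 0.6372 and 0.5856, against 0.9862 to 1.346 in the others, and a lower factor raises the CPM. The part of sex or scaling in these values was not tested.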

How the results depend on the processing

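Among the members called between EC-like and ASC-like cells, Kcna5, Kcnq1, Kcnc2, Kcnd1, Kcnn3, Kcnt2 and Kcng4 kept their call in all 19 alternatives run, while Kcnn1 lost it in 5, Kcnv2 in 3, Kcnk5 and Kcnip3 in 2 each and Kcnk2 in 1. Against ASC-like cells, mural-like calls were lost in 10 of 21 for Kcnn1, 8 for Kcnd1, 7 for Kcnn3, 2 for Kcnq1 and 1 of 20 for Kcna5, and MAC-like calls in 6 of 19 for Kcnn3, 2 for Kcnd1 and 1 of 18 for Kcnq1. Mural-like against EC-like cells, Kcnj8 lost its call in 4 of 19. In the sex comparison of ASC-like cells, Kcnv2 kept its call in 17 of 17 and Kcng1 in 15 of 15, while Kcnip3 lost it in 6 of 17. Counts of called members in mural-like against ASC-like, MAC-like against ASC-like and mural-like against EC-like cells (5, 3 and 2 in the text) went to 10, 13 and 5 with the likelihood ratio test and to 12, 15 and 6 with DESeq2. Without the replicate block by mouse they were 9, 8 and 4, and 15 in EC-like against ASC-like cells. From the sums of the 2 classes alone they were 0, 5 and 1. Mural-like counts against ASC-like and EC-like cells were 0 and 0 with classes called from the markers of each cell, and 3 and 4 without cells rich in other classes' markers; both leave mouse 1 alone in the mural-like class. Without the mural-like sum of mouse 2, an alternative chosen after seeing the data, 2 members differed from ASC-like cells, and against EC-like cells Kcnma1 (5.61) was called and Kcnj8 (6.25, adjusted p = 0.16) was not. In the sex comparison of ASC-like cells, both the likelihood ratio test and DESeq2 called 5 members in place of 3. The cause of these shifts was not tested. Leaving out each mouse in turn gave 8 to 13 members in EC-like against ASC-like cells (8 without mouse 6/7), 2 to 5 in mural-like and 1 to 4 in MAC-like against ASC-like, 0 to 3 in mural-like against EC-like, 2 to 3 between the sexes of ASC-like cells, and 0 in EC-like cells. A lone mural-like or MAC-like sum was then assumed to vary like the others. In mural-like against EC-like cells, leaving out a mouse took Kcnma1 from −1.04 (without mouse 1, a turn of its direction) to 4.03 (without mouse 8), and its highest value over all alternatives was 6.09. Over single genes, 606 values kept direction and side of the threshold, 63 lost and 32 gained a call, and 1 turned. The mural-like and MAC-like comparisons rest on 2 sums each, which limits their precision.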

Other observations

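Channel genes also marked small clusters that entered no comparison, given here in CPM by the library total, with no test. The lymphatic endothelial-like cluster of 22 cells from mice 1, 5, 6/7 and 8 had Kcnn3 at 265 with reads in 8 cells, Kcnk5 at 98.1 in 9 cells and Kcnj8 at 61.7 in 10 cells. Kcnn3 and Kcnk5 were called lower in EC-like than in ASC-like cells, so this cluster stood on the other side of blood vessel EC-like cells for both. The epithelial-like cluster, 19 cells of mouse 1, had the tandem-pore channel Kcnk1 at 95.3 in 17 cells, Kcnj15 at 56.2 in 12 cells, Kcnn4 at 47.5 in 12 cells, Kcnj16 at 46.4 in 11 cells and Kcnq1 at 42.1 in 8 cells.

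An unnamed cluster of 103 cells of mice 1 and 8, led by the glial genes Sox10 and Cdh19, had the axonal channel gene Kcna1 at 12.6 in 9 cells. Within the ASC-like clusters, Kcng1 was at 12.8 in 1 male cluster and at 2.09 and 1.79 in the other 2, and Kcnv2 was at 6.06 and 4.96 in 2 of the 5 female ones. Kcnk1, Kcnj16 and Kcna1 were chosen after their values were seen.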
